A study of Mus musculus with 12 samples.

Results

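The genes described here encode the splicing regulators and RNA-binding proteins of 10 named families in mouse somatosensory cortex at postnatal day 7. They were chosen by a rule on gene names, with earlier results of these data known. The rule took every symbol that begins with Srsf, Hnrnp, Rbfox, Celf, Nova, Ptbp, Mbnl, Elavl or Khdrbs followed by a digit or a lower-case letter. It also took Qk. A symbol had to hold at least 10 counts over the 12 libraries, and 56 of the 24452 symbols in the files met the rule. They carried 160 of the 35840 transcripts. The Hnrnp family had 20 genes, Srsf 11, Celf 6, Elavl 4, Khdrbs, Mbnl, Ptbp and Rbfox 3 each, Nova 2, and Qk stood alone. Mbnl3 was too low to be tested, so 55 of the 14739 genes tested were members.

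The study asked whether the response of the developing cortex to ethanol depended on p53, using stranded RNA sequencing of single-end reads. The labels call the libraries mRNA and the study's methods call them total RNA. Male mice of the C57BL/6 background received a pair of intraperitoneal injections of saline or ethanol on postnatal day 7, and tissue was taken 8 h after the second. The 4 groups were wild type (WT) with saline, WT with ethanol, p53 knockout (KO) with saline and p53 KO with ethanol, with 3 libraries in each. The KO is a germline deletion present in every cell, and all the groups were injected. The labels do not say whether each library came from 1 animal, so p-values measure the spread between these libraries.

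SR proteins (the Srsf genes) bind exonic sequences and generally promote inclusion of the exon, whereas hnRNP proteins coat nascent RNA and often oppose it. The Rbfox, Nova, Celf, Elavl, Khdrbs, Mbnl, Ptbp and Qk proteins direct exon choice, RNA stability or localization in particular cell types, and Ptbp1 gives way to Ptbp2 as progenitors become neurons. Many SR and hnRNP genes control their own level through a "poison" exon, an alternative exon with an early stop codon whose inclusion sends the transcript to nonsense-mediated decay.

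Depth differed 23.7-fold between libraries, from 719735 to 17066392 assigned counts. The 2 shallowest libraries, KO ethanol replicate 1 and WT saline replicate 1 (1953154 counts), are also those whose names begin with L where all others begin with P. What that letter stands for is not given in the sources used here. The study took tissue by laser microdissection at first and by hole punch later, and the labels do not say which library came from which, so the method cannot be told apart from other differences between libraries. Results are therefore given with and without these 2 libraries where they change. Trp53 itself, the targeted gene, was read at 2.38 to 12.8 RPKM (reads scaled to transcript length and library size) in WT libraries and 5.18 to 13.6 in KO libraries. As the deletion leaves part of the gene in place and the values sum over the whole gene, this does not check the genotype labels. Neuronal markers were high in every library, with summed levels of 6348 to 12596 CPM (counts scaled to library size, here with TMM factors).

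Levels compared between genes are mean RPKM over the 12 libraries. Srsf5, an SR protein, was the highest member at 199, followed by Hnrnpk at 189, Hnrnpa2b1 at 172, Hnrnph1 at 138 and Srsf3 at 133. Among the cell-type regulators, Khdrbs3 (SLM2, a neuronal relative of Sam68) reached 82.0, Celf4 80.6, Elavl3 (HuC, a neuronal RNA stabilizer) 55.2, Ptbp2 53.97, Rbfox3 (NeuN) 45.2 and Qk 38.4. Mbnl2 led its family at 14.1 and Nova2 at 8.73, while Khdrbs2 at 4.40, Ptbp3 at 4.36 and Mbnl3 at 0.0685 were the lowest members. Each gene varied widely between libraries, and 54 of the 55 neighbouring pairs in this order had overlapping ranges, so the order of neighbours is a description only. The lead of Celf4, Khdrbs3, Rbfox3 and Srsf5 in their families rests on the correction for length: by normalized CPM, Celf2, Khdrbs1, Rbfox2 and Srsf3 led instead.

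**Figure D1:**
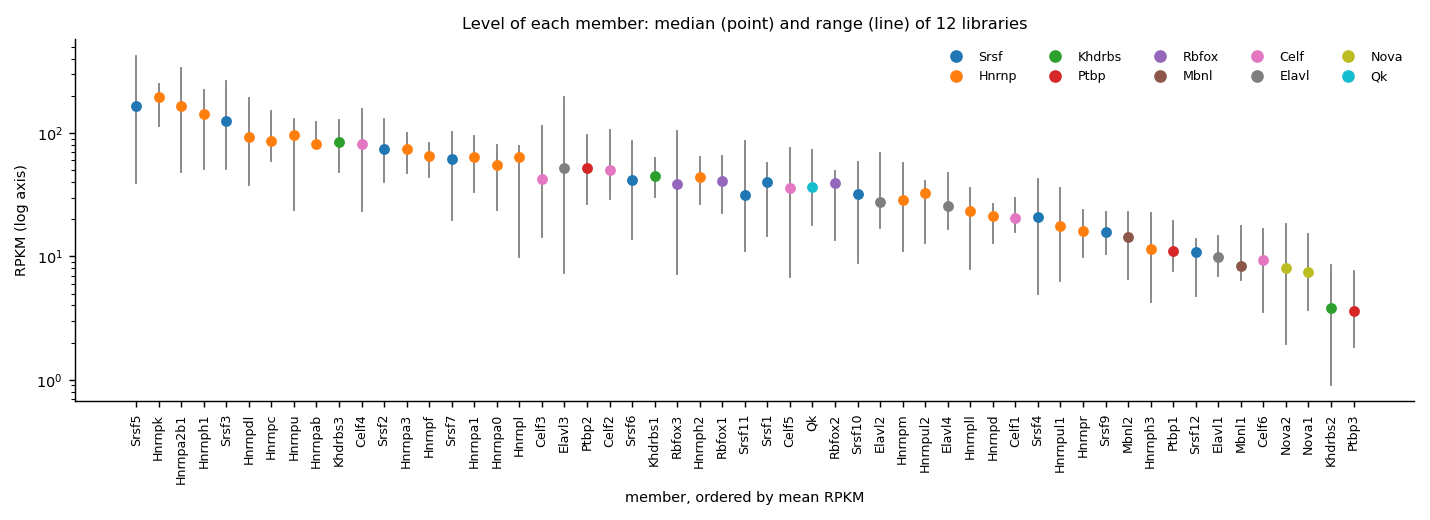
RPKM on a log axis for the 55 members tested, in order of mean level, with the median of the 12 libraries as a point coloured by family and their range as a line. Srsf5 and Hnrnpk stand at the left, Khdrbs2 and Ptbp3 at the right, and the ranges of neighbouring genes overlap.

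Ethanol in WT cortex was compared with saline first. A gene was called where its Benjamini-Hochberg adjusted p in edgeR's quasi-likelihood test was under 0.30, the level the study used. By that rule 10 members were called, 6 higher and 4 lower with ethanol, or 18.2% of those tested. Of all genes tested 22.5% were called, 12.1% higher and 10.4% lower, so the members' share was near, and below, the background. The groups did not overlap for 13 members, or 23.6%, against 19.6% of all genes. None reached an adjusted p under 0.05 in edgeR (background 0.0746%), 7 had an unadjusted p under 0.05 (background 18.3%), and at the 0.05 level DESeq2 called 1 and limma 0. The median log2 fold change was 0.23 over members and 0.06 over all genes. Scaling to the library totals alone, in place of TMM, gave 18 members higher and 0 lower, where 27.5% of all genes were called. It moved the median of all genes to 0.49, so the directions below are relative to the typical gene. The 4 members lower with TMM were then not called. At the 0.30 level limma on log2(RPKM + 1) called 3 members (2.42% of all genes), and an edgeR fit of the 2 WT groups alone called 0 (0.278%). With offsets for length and GC content 17 of 55 members were called, against 17.9% of all genes. The members' share was then above the background.

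Of the 20 Hnrnp genes, 3 rose and 2 fell. Hnrnpm, an hnRNP that binds GU-rich RNA, was read at 35.5, 42.6 and 28.4 normalized CPM with saline and at 88.1, 123 and 63.0 with ethanol in WT. The groups did not overlap, and Hnrnpm rose by 1.36 on the log2 scale (SE 0.39, edgeR adjusted p = 0.184). Hnrnpul1, which takes part in transcription and the DNA damage response, stood at 45.7, 11.02 and 23.2 with saline and at 97.8, 53.7 and 66.3 with ethanol. It rose by 1.47 (SE 0.47, edgeR adjusted p = 0.196), with the lowest saline value in replicate 2.

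Hnrnpa2b1, a core hnRNP of RNA packaging and transport, was at 149, 239 and 157 with saline and 325, 539 and 344 with ethanol, again without overlap, and rose by 1.15 (SE 0.44, edgeR adjusted p = 0.216). Hnrnpab and Hnrnpa0 moved the other way. Hnrnpab fell from 356 ± 72.2 to 218 ± 35.0 normalized CPM (SD, n = 3), a log2 change of -0.71, and Hnrnpa0 had a log2 change of -0.80. The remaining Hnrnp genes were not called, Hnrnpk among them (log2 difference -0.23).

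Khdrbs1 (Sam68), a signal-responsive splicing regulator, showed the lowest p among the members that fell. Its values were 251, 476 and 337 with saline and 146, 198 and 199 with ethanol. The groups were separate, and the log2 change was -0.97 (SE 0.34, edgeR adjusted p = 0.208). Khdrbs3 also fell, with a log2 change of -0.81. Outside these families Srsf12, an SR-related protein, rose by 0.78, Celf6 by 1.02 and Rbfox2, which drives muscle and neuronal exon programs, by 0.94. The highest members of the Srsf family by level or count were not called: Srsf5 was at 74.0, 297 and 153 with saline and 291, 618 and 263 with ethanol, a log2 difference of 1.16 (SE 0.63), and Srsf3 at 316, 1193 and 719 and then 224, 388 and 496, a difference of -1.01 (SE 0.53). Both overlapped between the groups. No Elavl, Mbnl, Nova or Ptbp gene was called, nor was Qk.

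KO with saline was compared with WT with saline to read the effect of the genotype alone. This comparison shares its WT saline libraries with the one above, so the 2 are not independent. Here 8 members were called, 5 higher and 3 lower in KO, or 14.5% of those tested, against 25.8% of all genes (12.4% higher, 13.4% lower). The groups did not overlap for 10 members, or 18.2% (background 22.9%). No member passed 0.05 after adjustment in edgeR (background 0.0543%) or limma and 2 did in DESeq2, while 6 had an unadjusted p under 0.05 in edgeR (background 19.6%). The median was 0.26 over members and 0.04 over all genes. With scaling to library totals alone the split was 20 higher and 0 lower, where 27.5% of all genes were called. With offsets for length and GC content 16 of 55 members were called, against 14.4% of all genes.

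Hnrnpm stood at 84.9, 73.0 and 117 normalized CPM in KO saline, all above its WT saline libraries, with a log2 difference of 1.37 (SE 0.39, edgeR adjusted p = 0.176). Hnrnpa2b1 was at 332, 372 and 633 (difference 1.296), Hnrnpul1 at 74.8, 60.3 and 53.7 (difference 1.26) and Rbfox2 at 312, 306 and 331 (difference 1.05). None of the KO saline libraries overlapped WT saline for these 4 genes.

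Khdrbs1 was lower in KO, at 162, 218 and 159, with a log2 difference of -0.98 (SE 0.34, edgeR adjusted p = 0.179). Hnrnpab differed by -0.79. Srsf10, an SR protein that turns into a splicing repressor when dephosphorylated, was at 50.4, 89.6 and 53.7 in WT and 111, 194 and 102 in KO, with a difference of 1.07 and no overlap. Hnrnpc, which binds U-rich introns, was at 247, 826 and 522 in WT and 246, 398 and 174 in KO, and its difference of -0.96 came with overlap.

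Ethanol in the KO cortex gave no call. Of the 55 members tested 0 were called by edgeR, DESeq2 or limma, as were 0% of all genes in edgeR, and 1 had an unadjusted p under 0.05, or 1.82% against a background of 3.15% (2.01% lower). That member was Elavl2 (HuB), a neuronal RNA stabilizer. The groups did not overlap for 6 members, all lower with ethanol (10.9%, background 10.8%). Elavl2 was read at 160, 301 and 97.0 normalized CPM with saline and at 63.5, 77.6 and 77.5 with ethanol. The ethanol libraries all lay below the saline libraries, the log2 difference was -1.34 (SE 0.41), and the edgeR adjusted p was 0.999. The next smallest p-values belonged to Ptbp3, Elavl4, Mbnl1 and Qk, with log2 differences of -0.94, -0.68, -0.65 and -0.76. With offsets for length and GC content the differences of Elavl4 and Mbnl1 turned to 0.10 and 0.0083, and that of Mbnl1 was 0.31 by single transcripts. The median over members was -0.21, against 0.01 over all genes, and without the 2 L libraries it was -0.02 against -0.03. With the offsets the median of members turned to 0.027.

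KO with ethanol was likewise compared with WT with ethanol. It gave 0 calls by any of the 3 tools (0% of all genes in edgeR), with 3 members at an unadjusted p under 0.05 (background 3.24%), each lower in KO (background 2.26%). The groups did not overlap for 9 members (16.4%, background 12.7%). The members at that unadjusted level were Elavl2 (log2 difference -0.96), Ptbp3 (-1.09) and Qk (-1.02), the last a regulator of glial and neural progenitor RNA. Ptbp3 stood at 42.5, 24.6 and 49.7 in WT and 15.0, 17.5 and 21.2 in KO, and Qk at 379, 236 and 294 in WT and 95.2, 156 and 195 in KO. Neither gene overlapped between the groups. Mbnl1 and Khdrbs2 followed at -0.70 and -0.93.

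**Figure D2:**
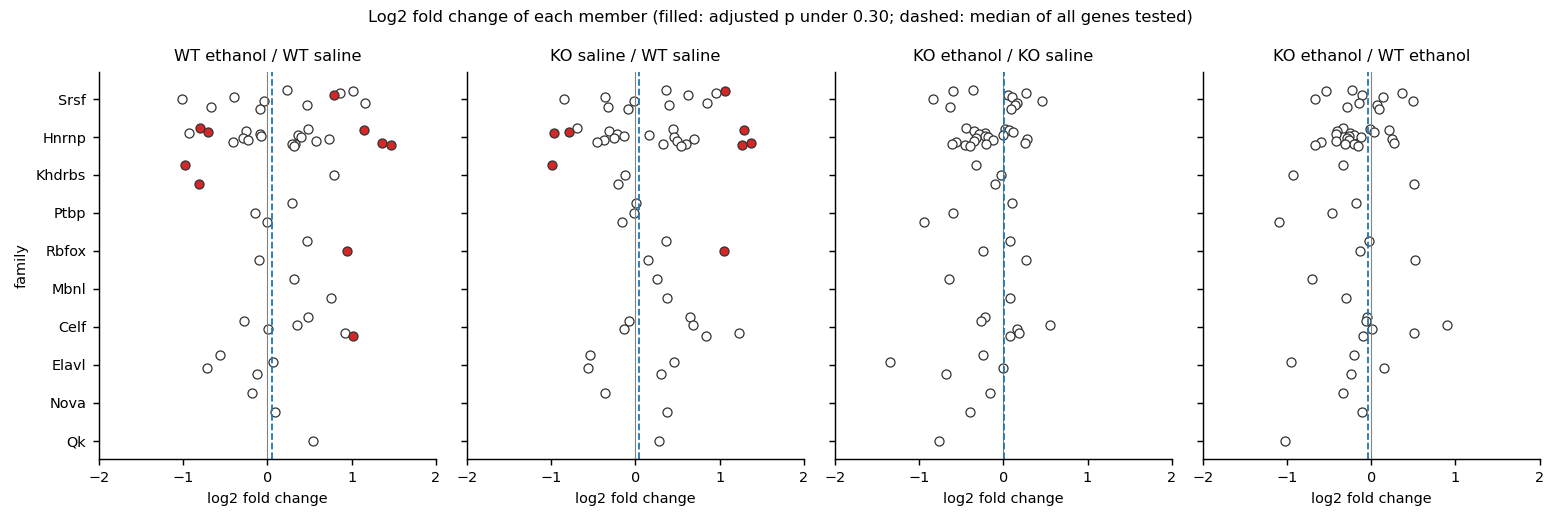
Log2 fold change of each member, by family, in the 4 comparisons of 2 groups, with filled points for an adjusted p under 0.30 and a dashed line at the median of all genes tested. Filled points appear in WT ethanol against WT saline (10) and KO saline against WT saline (8), and in neither of the other comparisons.

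The interaction asks whether the ethanol effect differed between genotypes, as the KO effect minus the WT effect. Of the members 2, or 3.64%, were called, both negative, against 11.1% of all genes (5.43% negative, 5.64% positive), and 3 had an unadjusted p under 0.05 (background 15.2%), also negative (background 7.67%). None passed 0.05 after adjustment by edgeR, DESeq2 or limma. Hnrnpul1 had an interaction of -1.93 (SE 0.65, edgeR adjusted p = 0.250). It was higher with ethanol in WT, and in KO it was 74.8, 60.3 and 53.7 with saline and 28.4, 51.3 and 55.02 with ethanol. Elavl2 had an interaction of -1.41 (SE 0.57, edgeR adjusted p = 0.283). In WT its saline values of 116, 171 and 121 overlapped the ethanol values of 129, 115 and 182, whereas in KO the groups were apart. Srsf10, Qk and Hnrnpm came next at -1.61, -1.30 and -1.10 and were not called. The median interaction was -0.45 over members and -0.11 over all genes. With offsets for length and GC content it was -0.068 and -0.080, and leaving out single libraries it ran from -0.57 to -0.14 over members, the latter without WT ethanol replicate 2.

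**Figure D3:**
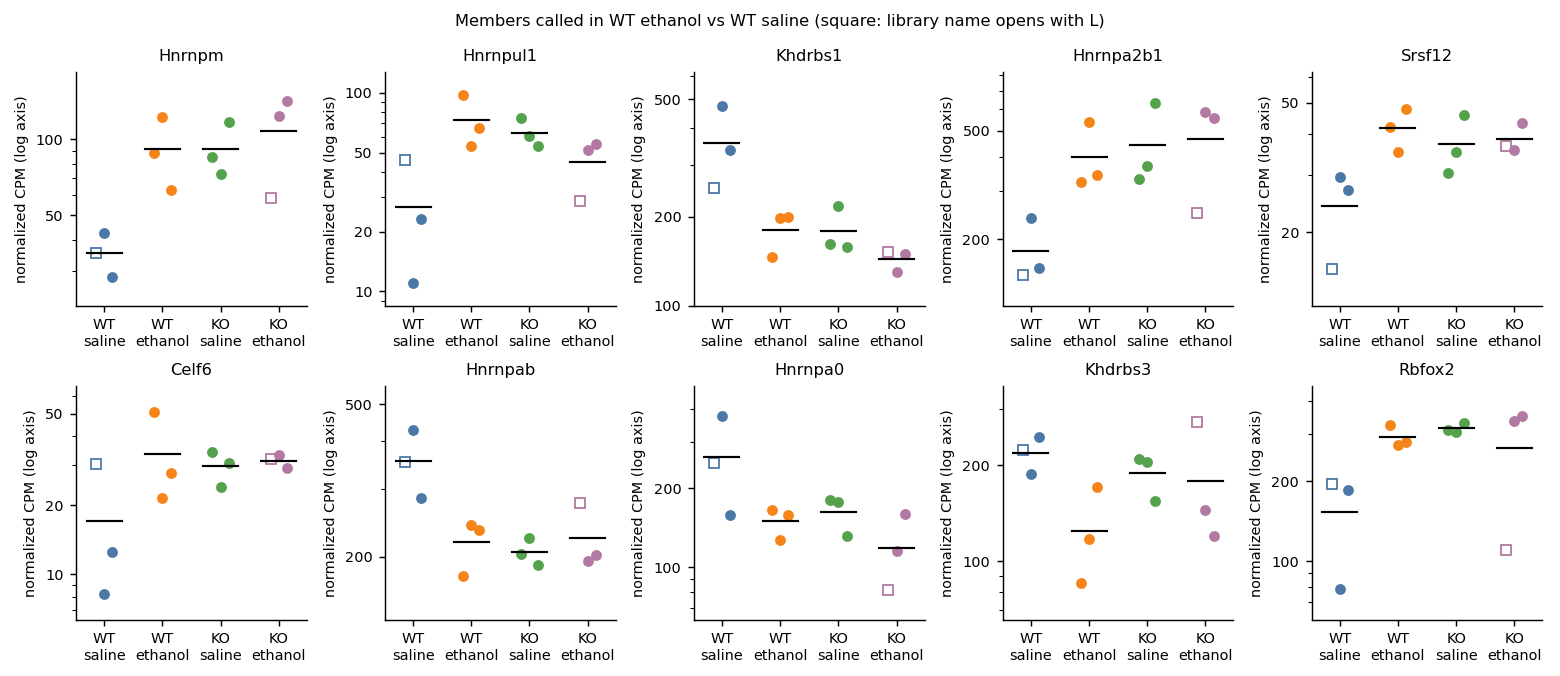
Normalized CPM on log axes for the 10 members called with ethanol in WT, one point per library in the 4 groups, with squares for the L libraries and bars at the mean. The WT saline means of Hnrnpm, Hnrnpul1 and Hnrnpa2b1 (35.5, 26.7 and 181) lie below those of the other groups, and that of Khdrbs1 (355) lies above them.

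WT saline is part of every comparison with calls, and its libraries disagreed with each other. In replicate 1 (one of the 2 L libraries) Elavl3 was at 1082 normalized CPM, against 58.8 and 39.1 in the other two and 213 to 256 with ethanol in WT. Srsf4 was at 115 against 10.6 and 15.7, Rbfox3 at 346 against 20.6 and 49.4, Nova2 at 179 against 14.1 and 36.9, and Hnrnpl at 196 against 23.9 and 75.2. Each of these genes was high in replicate 1 and low in the other two, with the WT ethanol libraries in between.

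Without the 2 L libraries, 33 of 56 members were called for ethanol in WT, 20 higher and 13 lower, where 55.4% of all genes were called, and they held all 10 of the calls above. For KO against WT with saline the number was also 33 (20 higher, 13 lower, all genes 56.4%), with 8 of 8 kept. The interaction then had 12 calls against 28.9% of all genes, and the 2 comparisons without calls stayed at 0. Elavl3 rose by 2.20 with ethanol in WT in this fit (edgeR adjusted p = 0.00656), Celf5 by 2.34, Srsf4 by 1.67 and Hnrnpul1 by 1.995, and Khdrbs1 changed by -1.25. WT saline and KO ethanol had 2 libraries each in this fit.

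The number of calls also moved when single libraries were left out. For ethanol in WT it was 27, 1 and 5 without WT saline replicates 1, 2 and 3, where 48.7%, 1.3% and 14.2% of all genes were called. It was 0 and 1 without WT ethanol replicates 1 and 2 (0.476% and 5.54% of all genes). It was 4, 5 and 6 without the KO saline replicates (12.6%, 16.6% and 18.3%), and 16, 4 and 5 without those of KO ethanol (31.6%, 14.8% and 16.3%). For KO against WT with saline it was 28 and 0 without WT saline replicates 1 and 2 (50.4% and 0.246% of all genes), 0, 0 and 2 without the KO saline replicates (0.0599%, 0.0599% and 9.57%), and 15 without KO ethanol replicate 1 (33.4%). The interaction had 17 calls without WT saline replicate 1 (33.8% of all genes) and between 0 and 3 without any other library (0% to 12.1%).

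Transcripts of the same gene were compared next, as the share of a gene's counts assigned to each. This asks whether the division changed, apart from the gene's total. It could be tested with edgeR's diffSpliceDGE for 37 members among 4075 symbols. With ethanol in WT, 24 members (64.9%) were called at an adjusted p under 0.30, against 23.5% of all symbols tested, and 9 at under 0.05, against 5.18%. For KO against WT with saline 23 were called (background 23.8%), of which 6 passed 0.05 (background 4.56%). The tested members had a median of 3 transcripts and 21324 counts, against 2 and 4834 for all symbols, and their part in the higher share was not tested. In the KO, ethanol gave 0 calls among members (background 0.0491%) with 1 at an unadjusted p under 0.05 (background 3.61%). KO against WT with ethanol gave 0 (background 0%), with 1 at that level (background 4.22%). The interaction had 11 calls (29.7%, background 16.9%), of which 1 passed 0.05 (background 2.92%). Combining the transcript tests by the Simes method in place of the F test left 12, 8 and 2 calls for ethanol in WT, the genotype with saline and the interaction. The share of all symbols was not taken for that combination.

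The shares were also compared library by library. These are the same counts, so the result is a second description and not further evidence. Shares within a gene are tied to each other, and the part of the members' greater depth was not tested here either. Of the 136 member transcripts compared, the shares of the groups did not overlap for 57 (41.9%) with ethanol in WT, against 23.8% of all transcripts, and for 52 (38.2%) between KO and WT with saline, against 26.7%. The number was 9 (6.62%, background 10.5%) for ethanol in KO and 15 (11%, background 10.1%) for KO against WT with ethanol. Without the 2 L libraries 22, 20 and 10 members were called for ethanol in WT, for the genotype with saline and for the interaction, of which 20, 18 and 7 had been called with all libraries. Without WT saline replicate 2 the numbers were 15, 9 and 6. For ethanol in WT it was 13 without WT ethanol replicate 1. For the genotype it was 13 without WT saline replicate 1, 9, 15 and 14 without KO saline replicates 1, 2 and 3, and 15 without KO ethanol replicate 2 or 3. For the interaction it was 23 without WT saline replicate 3, 4 without WT ethanol replicate 1 or KO saline replicate 1, and 7 without KO ethanol replicate 1. The share of all symbols called was not taken in the fits without some libraries. Whether members exceeded the background there was therefore not tested.

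A transcript that RefSeq lists as non-coding (an NR_ record) was present in 7 members. The annotation labels those of Srsf3, Srsf7, Hnrnpa1, Hnrnpa2b1 and Khdrbs1 as targets of nonsense-mediated decay. In Srsf3 and Srsf7, members of the SR family whose poison exons are ultraconserved, the record has an extra exon that the coding transcript lacks. The records also differ in exon ends, in exons 1 and 7 for Srsf3 and exons 1, 6 and 9 for Srsf7. They have 2594 bases against 2618 and 1991 against 2288. Reads over the extra exon were not counted on their own, so shares below are of the whole record. The extra exon of Srsf3 is exon 4 of 7 of NR_036613, at chr17:29039454-29039909 on the plus strand of GRCm38 (mm10), 456 bases long. The exon of Srsf7 is exon 4 of 9 of NR_036615, at chr17:80204622-80205081 on the minus strand, 460 bases long. The junctions below show why these records do not code for the full protein: each begins with the last 60 bases of exon 3, and goes on into the next exon of that transcript. Capitals mark the first in-frame stop codon of the poison exons, and the coding junctions hold none.
Srsf3 NR_036613, exon 3 to poison exon: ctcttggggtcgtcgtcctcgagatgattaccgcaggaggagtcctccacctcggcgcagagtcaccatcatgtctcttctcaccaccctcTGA
Srsf3 NM_013663, exon 3 to coding exon: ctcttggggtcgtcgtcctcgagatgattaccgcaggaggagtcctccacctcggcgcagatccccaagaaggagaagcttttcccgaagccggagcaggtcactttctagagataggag
Srsf7 NR_036615, exon 3 to poison exon: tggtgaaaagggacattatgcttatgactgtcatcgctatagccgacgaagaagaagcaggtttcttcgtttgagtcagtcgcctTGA
Srsf7 NM_146083, exon 3 to coding exon: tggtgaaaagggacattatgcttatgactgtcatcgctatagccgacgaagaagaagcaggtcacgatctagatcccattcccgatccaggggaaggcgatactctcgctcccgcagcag
The stop cuts the reading frame of Srsf3 after 124 of its 164 codons and that of Srsf7 after 137 of 238. The shown exon 3 bases end at chr17:29038624 in Srsf3 and begin at chr17:80205262 in Srsf7. The coding junctions run on into exons starting at chr17:29040775 and ending at chr17:80204387.

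The record of Srsf7 held a large part of its counts. Its poison-exon transcript held 16.3%, 1.94% and 2.58% of the gene's counts with saline in WT, and 48.4%, 72.7% and 29.2% with ethanol. In KO it held 43.2%, 34.0% and 66.5% with saline and 62.4%, 68.9% and 61.6% with ethanol. Every library outside WT saline was above all those of WT saline. The mean share was 50.1% ± 21.8 against 6.96% ± 8.13 (SD, n = 3) with ethanol in WT, and its difference of 43.1 percentage points gave an exact permutation p of 0.1, 2-sided, the smallest that 3 against 3 libraries allow. KO exceeded WT by 40.9 points with saline (exact permutation p = 0.1). The gene's division of counts over its 4 tested transcripts was called for ethanol in WT (edgeR adjusted p = 0.00698), for the genotype with saline (0.0230) and for the interaction (0.219). Counting error was smaller: the 95% Wilson interval was at most 4.40 points to either side except in KO ethanol replicate 1, where 28 counts gave 17.0 points. These intervals cover counting error only.

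For Srsf3 the share of the poison-exon transcript was 6.55%, 0.549% and 1.07% with saline and 18.8%, 24.2% and 4.90% with ethanol in WT. One ethanol library lay within the saline range, and the exact permutation p was 0.2. In KO saline the shares of 13.3%, 8.50% and 20.3% were all above WT saline (means 14.0% and 2.72%, exact permutation p = 0.1), and with ethanol in KO they were 6.05%, 29.2% and 24.2%. Its division was called for ethanol in WT (edgeR adjusted p = 0.00666), for KO against WT with saline (0.0122) and for the interaction (0.159). Over the 28 exact tests of non-coding shares, which covered 7 transcripts in 4 pairs of groups, no adjusted p was below 0.35.

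The hnRNP records behaved less evenly. The stop in NR_104427 of Hnrnpa1 falls after 320 codons, against 373 in the coding transcript, and that in NR_104468 of Hnrnpa2b1 after 301 against 341. Unlike those of Srsf3 and Srsf7, both stops lie in exons shared with the coding transcript. The Hnrnpa2b1 record has no exon absent from the coding transcript, with 11 exons against 12 and 1542 bases against 1662. These codon numbers therefore do not show an early stop. The Hnrnpa1 record held 26.0%, 6.44% and 6.18% with saline and 28.5%, 45.3% and 22.9% with ethanol in WT, with overlap. In KO it ranged from 12.3% to 47.2% with saline and was 0%, 44.7% and 52.5% with ethanol. The Hnrnpa2b1 record held 19.6%, 3.72% and 1.27% with saline and 18.4%, 23.2% and 8.33% with ethanol in WT, and its division was not called (edgeR adjusted p = 0.474). In both genes WT saline replicate 1 had the highest of the 3 saline shares, as it did for Srsf3 and Srsf7, while KO ethanol replicate 1 held the lowest share of its group for Srsf3, Hnrnpa1 and Hnrnpa2b1.

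Celf3, a neuronal member of the CELF family, had shares of NR_110353 that were higher with ethanol in KO (mean 17.9% against 4.76%, exact permutation p = 0.1). Its division was not called there. The shares ran from 10.5% to 32.6% with ethanol and from 2.31% to 6.58% with saline. The highest was in KO ethanol replicate 1, an L library, where 56 counts gave a Wilson interval of 11.9 points to either side. In WT saline they ran from 4.34% to 49.2%, with replicate 1, the other L library, the highest. The record NR_045036 of Khdrbs1 held less than 5% of that gene's counts over all libraries. The record of Srsf9, NR_036616, held 25.9% with saline and 73.0% with ethanol in WT. However, the annotation used here gives NR_036616 and the coding NM_025573 as the same transcript, so what separates them could not be resolved.

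**Figure D4:**
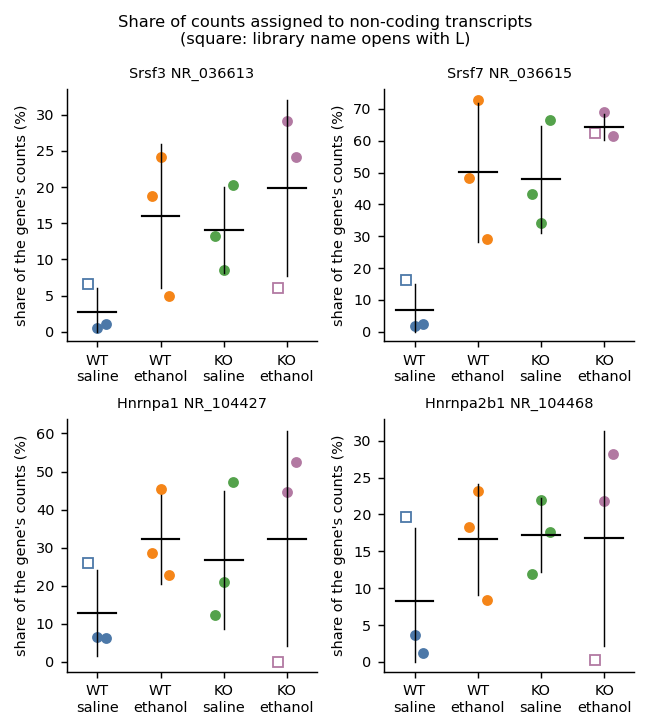
Share of the counts of Srsf3, Srsf7, Hnrnpa1 and Hnrnpa2b1 assigned to the non-coding RefSeq record, in percent, one point per library in the 4 groups (squares for the L libraries), with the mean as a bar and the SD as a line cut off at 0. For Srsf7 the 3 WT saline libraries sit at 1.94% to 16.3% and all the others at 29.2% or more.

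Coding transcripts shifted too. Celf1, which binds GU-rich elements in introns and 3′ ends, had the smallest p. Its transcript NM_198683 held 66.2%, 53.5% and 43.7% of its counts with saline in WT, 22.2%, 14.1% and 17.3% with ethanol in WT, 17.5%, 16.5% and 22.6% with saline in KO and 35.2%, 27.9% and 26.0% with ethanol in KO. WT saline stood above every other library. The division was called for ethanol in WT (edgeR adjusted p = 0.00307), for the genotype with saline (0.00552) and for the interaction (0.0176), the latter the one interaction under 0.05. By the Simes combination the edgeR adjusted p-values were 0.209, 0.283 and 0.302, so the interaction was then not called. The annotation maps NM_198683 and NM_001244903 to the same transcript, each with 4678 bases, so what separates them could not be resolved. Whether the division between them reflects a difference in the RNA was not tested.

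Rbfox1, a splicing factor of neurons and muscle, is made in forms with alternative exons near its 3′ end. NM_021477 carries a 40-base exon at chr16:7363865-7363904 on the plus strand where NM_183188 has a 43-base exon at chr16:7369801-7369843, and the 2 also differ in their first exons and in the length of the last one (1836 and 123 bases). NM_021477 held 0.00%, 1.59% and 7.16% with saline and 30.6%, 13.7% and 18.8% with ethanol in WT. In KO it held 28.4%, 20.1% and 21.9% with saline and 13.7%, 21.8% and 20.0% with ethanol. The 3 WT saline libraries were the lowest. The edgeR adjusted p was 0.0109 for ethanol in WT, 0.00691 for KO against WT with saline and 0.0541 for the interaction.

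Elavl4 (HuD), a neuronal stabilizer of AU-rich transcripts, was mostly assigned to NM_001163397 in WT saline, at 91.9%, 85.2% and 53.7%. That transcript begins at another first exon than NM_001038698 and lacks its 39-base exon 6 at chr4:110209740-110209778 on the minus strand. With ethanol in WT the shares were 27.9%, 20.4% and 37.6%, and in KO they lay between 37.7% and 49.5% with saline. The division was called for ethanol in WT (edgeR adjusted p = 0.00840) and for the genotype (0.0508). In KO ethanol replicate 1 the share was 6.31%, against 42.5% and 45.5% in the other two.

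The hnRNP genes Hnrnpd and Hnrnpa3 showed the same groups apart. Hnrnpd (AUF1), an mRNA decay factor, had 57.1%, 39.6% and 25.4% of its counts on NM_001077266 with saline and 13.8%, 9.05% and 20.99% with ethanol in WT. This transcript lacks a 57-base coding exon at chr5:99976534-99976590, and its last exon spans 336 bases against 5399 in NM_001077265. The division was called (edgeR adjusted p = 0.0121). Hnrnpa3 had 34.9%, 34.9% and 37.7% on NM_146130 with saline and 55.3%, 45.2% and 46.7% with ethanol in WT (edgeR adjusted p = 0.0132). The last exon of that transcript has 442 bases, against 4010 in NM_053263.

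Srsf1 (SF2/ASF), the prototype SR protein, had 14.7%, 19.7% and 17.1% on NM_001078167 with saline and 62.9%, 59.0% and 37.8% with ethanol in WT, where edgeR gave an adjusted p of 0.0865. In that transcript the third exon is 2448 bases long, against 173 in NM_173374, and runs on through the following intron, and the open reading frame has 201 codons against 248 in NM_173374. In KO ethanol the shares were 14.7%, 78.1% and 74.1%. Ptbp1, the repressor of neuronal exons in progenitors, had NM_001283013, which lacks a 78-base exon and codes for 489 amino acids against 555, at 84.9%, 60.9% and 3.90% in WT saline and at 84.9%, 9.37% and 7.61% in KO ethanol. It lay between 3.02% and 6.56% in the 6 libraries of WT ethanol and KO saline.

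**Figure D5:**
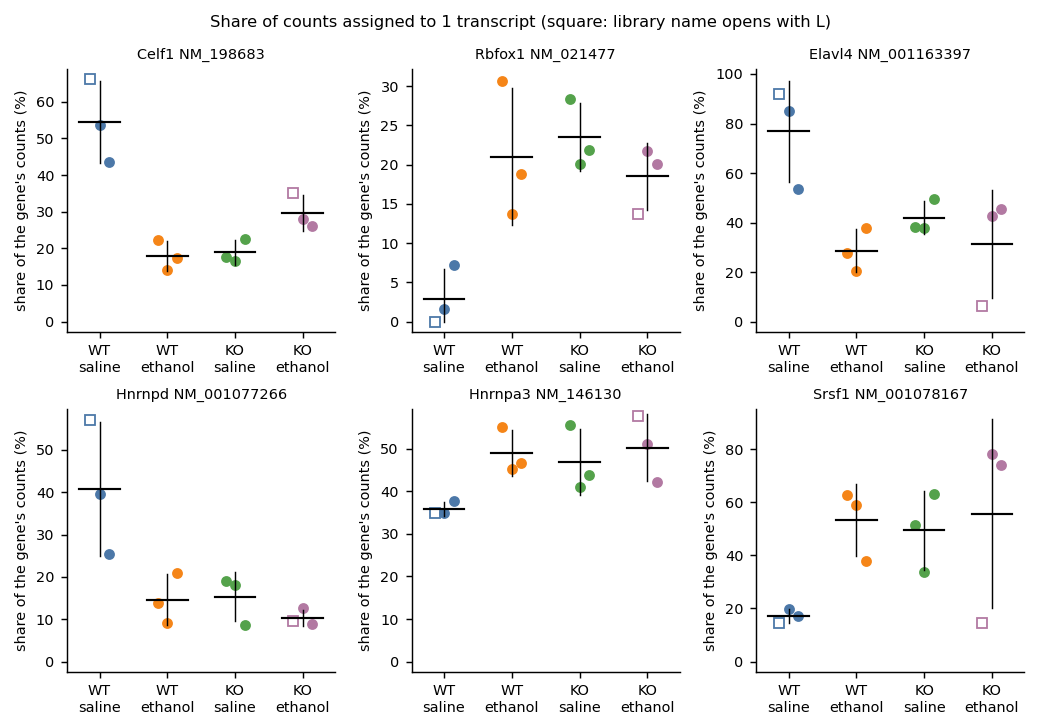
Share of the counts held by one coding transcript of Celf1, Rbfox1, Elavl4, Hnrnpd, Hnrnpa3 and Srsf1, in percent, one point per library in the 4 groups (squares for the L libraries), with the mean as a bar and the SD as a line cut off at 0. WT saline is apart from every other library for Celf1 and Rbfox1, whereas for Srsf1 KO ethanol replicate 1 sits with WT saline at 14.7%.

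Shares were split from single-end reads by the authors' estimate, and some libraries had identical divisions. The 2 L libraries, of different groups, divided 39.5% of symbols (897 of 2272) alike within 0.01 percentage points, 5 of 33 members among them (Hnrnpr, Ptbp1, Ptbp2, Srsf1 and Srsf11). Over the 66 pairs of libraries this share ran from 3.35% to 39.5% with a median of 8.41%. The equal shares of Ptbp1 and Srsf1 in those 2 libraries are instances. The next pair lay within WT saline: replicates 1 and 2 divided 28.3% of symbols alike (886 of 3128), with Hnrnpa3, Celf5, Mbnl2, Ptbp3 and Srsf11 among 34 members. The share of 34.9% given for Hnrnpa3 in both replicates is such a case, and whether these are separate readings was not tested.

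The length of the transcripts assigned moved with the groups too. For 36 members with a length for each transcript, the count-weighted mean was longer with ethanol in WT for 24 and shorter for 12 (median 63.7 bases longer), and longer in KO than in WT with saline for 23 and shorter for 13. For ethanol in KO it was 16 and 20. These counts were made for members only, with no share over all symbols to set them against. Over all genes tested, log2 fold changes correlated with transcript length (Spearman rho across genes 0.48 for ethanol in WT and 0.55 for the genotype with saline), while over members rho was -0.03 and 0.03. For ethanol in KO rho was -0.48 over all genes and -0.46 over members. Genes are not independent replicates, and these values are descriptive. The part of length in the results was not tested.

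Other genes of RNA processing were read for comparison, against the background of 12.1% of all genes called higher and 10.4% lower with ethanol in WT, and 12.4% and 13.4% in KO against WT with saline. Of 9 kinases that phosphorylate SR proteins, 4 were called higher and 0 lower with ethanol in WT (median log2 fold change 0.77), and 5 and 0 in KO against WT with saline (median 1.08). Srpk1, the cytoplasmic SR protein kinase, rose by 1.04 and differed by 1.46. Of 10 genes of nonsense-mediated decay, 4 were called higher and 0 lower in each comparison, led by Upf2 at 1.91 (SE 0.46) and 2.004. Of 36 core spliceosome genes, 3 were higher and 6 lower with ethanol in WT, and 2 and 9 in KO. Ddx23, a helicase of the U5 particle, had the smallest p (log2 fold changes of 2.60 and 2.64). Among 43 other RNA-binding regulators tested of 45, 7 were higher and 3 lower, and 9 and 3 in KO. Msi2 rose by 1.64 with ethanol, and Pcbp2 differed by -1.14 in KO.

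Markers of some other cell types moved with WT saline as well. All 5 erythroid genes were called lower with ethanol in WT and lower in KO with saline. Their summed level was 337 to 1319 normalized CPM in WT saline, 50.3 to 145 in WT ethanol, 35.9 to 99.2 in KO saline and 29.0 to 764 in KO ethanol, where replicate 1 was the high one. Of 8 microglial genes 4 were called lower in each of those comparisons, with sums of 115 to 588 in WT saline and 144 to 368 elsewhere. Progenitor sums were 57.4 to 63.7 in WT saline, 64.3 to 228 in WT ethanol, 66.8 to 160 in KO saline and 36.8 to 104 in KO ethanol. The WT saline libraries thus lay below all those of WT ethanol and KO saline. Sums of astrocyte, oligodendrocyte lineage, endothelial and mural markers overlapped between WT saline and WT ethanol. Astrocyte sums, for instance, were 1141 to 2564 and 1728 to 3061, and oligodendrocyte lineage sums 236 to 714 and 464 to 835. Choroid plexus and ependymal genes summed to 5003 in WT ethanol replicate 1 and to 0 in KO ethanol replicate 1. In tissue samples fewer cells of a type and less RNA per cell cannot be told apart, and the part of cell makeup in the members' differences was not tested.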

How the data were processed

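The authors took cortex by laser microdissection for the earlier samples and by hole punch for the later ones, extracted and sequenced RNA, aligned reads to GRCm38 (mm10) and counted RefSeq transcripts, with Bowtie2 and Partek named in the submitters' processing notes without versions. Which method each library had, and the counting settings, are not given in the sources used here. The authors deposited estimated counts per transcript and RPKM values. The counts were rounded after being summed per symbol. The deposited RPKM values served for levels between genes. No row lacked a gene name.

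Genes were kept by edgeR's filterByExpr, scaled by TMM and tested by quasi-likelihood with 1 mean per group over all 12 libraries (edgeR 4.0.16 in R 4.3.3). A call was an adjusted p under 0.30 (Benjamini-Hochberg). Transcript shares were tested with diffSpliceDGE, at the gene level. Values printed as normalized CPM use TMM-scaled totals. The alternatives were DESeq2 1.42.0, limma 3.58.1 on log2(RPKM + 1) and log2(RPKM + 0.1), other scalings and filters, leaving out libraries, and offsets for length and GC content. Total counts per library ranged from 719735 to 17066392. TMM factors were 0.564 in WT saline replicate 2 and up to 1.23, and the common coefficient of variation was 0.451.

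The genes named were the 5 members with the smallest p in each comparison, for gene totals and for shares, the highest member of each family by RPKM, the members with a non-coding transcript of 5% or more, and Celf1. Members outside this rule (such as Srsf4, Nova2 and Celf5) were named after their values were seen. The members and lists were chosen with earlier results of these data known. Counts were simulated for WT ethanol against WT saline, drawn for 14763 genes and with changes placed in well-counted genes only. On these edgeR recovered 13% of 2-fold and 63% of 4-fold changes, with 18 false among 94 calls. DESeq2 recovered 27% and 81.8%, with 150 false among 258 calls, so most of its calls there were false. Limma, simulated for 14739 genes, recovered 12% and 57%, with 19 false among 88 calls. For shares, a first simulation raising an arbitrary transcript 2- and 4-fold recovered almost none. A second, raising the least abundant transcript of well-counted genes, recovered 35% at 4-fold and 100% at 16-fold odds over 4050 symbols. Exon positions and the printed sequences came from the GENCODE annotation and transcript sequences for GRCm38, matched by RefSeq accession. Figures were drawn with matplotlib 3.10.9.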

Additional observations from a re-analysis of the deposited data

Results flagged for a closer look

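The interaction term was called for the total of 2 members (3.64%, against 11.1% of all genes). Hnrnpul1 had a log2 interaction of -1.93 and Elavl2 of -1.41, both with a lower ethanol effect in KO. Leaving out single libraries kept both negative, from -2.44 to -1.53 for Hnrnpul1 and from -1.65 to -0.88 for Elavl2. No member was called by limma, by edgeR with the name letter as a covariate, or by edgeR without WT saline replicate 2 or 3, WT ethanol replicate 1 or 2, KO saline replicate 1 or 2, or KO ethanol replicate 1. Between 0% and 7.59% of all genes were called in those fits.

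For transcript shares the interaction was called for 11 members (29.7%, against 16.9% of all symbols tested). The edgeR adjusted p was 0.0176 for Celf1, 0.0541 for Rbfox1, 0.0832 for Ptbp1, 0.142 for Celf2, 0.159 for Srsf3, 0.171 for Elavl4, 0.183 for Rbfox3, 0.219 for Srsf7, 0.267 for Qk, 0.275 for Hnrnpa3 and 0.299 for Hnrnpr. When single libraries were left out it ran from 0.000447 to 0.113 for Celf1, 0.00223 to 0.188 for Rbfox1, 0.000778 to 0.260 for Ptbp1, 0.0675 to 0.498 for Celf2 and 0.0544 to 0.424 for Srsf3, and it reached 0.503 for Srsf7 without WT saline replicate 2. The calls of Celf2, Srsf3 and Srsf7 were thus lost in some of these fits. The Simes combination gave 0.302 for Celf1. Ptbp1 had identical shares in the 2 L libraries, and without them its adjusted p was 0.412.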

How the results depend on the processing

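No paired analysis was possible because the labels pair no libraries across groups. In each sentence the values are for ethanol in WT, KO against WT with saline, and the interaction, where 10, 8 and 2 members were called. The share of all genes called in the same fit is in brackets. Taking a member as called by any single transcript gave 36, 30 and 19, with no share of all genes taken. Scaling to library totals gave 18, 20 and 9 (27.5%, 27.5% and 13.6%), with medians of 0.61, 0.66 and -0.79. Dropping the 2 L libraries gave 33, 33 and 12 (55.4%, 56.4% and 28.9%). Limma on log2(RPKM + 1) gave 3, 2 and 0 (2.42%, 2.84% and 0.109%). With a pseudocount of 0.1 it gave 2, 1 and 0 (1.26%, 1.74% and 0.0339%). Offsets for length and GC content gave 17, 16 and 1 (all genes 17.9%, 14.4% and 0.593%), so the members' share was then above the background. With these offsets the interaction median was -0.068. For ethanol in KO they turned the median of members to 0.027, Elavl4 to 0.10 and Mbnl1 to 0.0083. By single transcripts Mbnl1 was 0.31. Requiring 10 counts in every library gave 13 calls for the genotype (35.5%) and 6 for the interaction (24.5%), and the name letter as a covariate 13 (27.3%) and 0 (0%). Fitting the compared groups alone gave 0 for ethanol in WT (0.278%). The interaction had 4 calls in DESeq2 (21.1%), 1 with RLE scaling (11.1%) and 1 without a filter (7.99%). Leaving out 1 library gave 0 to 27, 0 to 28 and 0 to 17 calls. The shares of all genes then ran from 0.476% to 48.7%, 0.0599% to 50.4% and 0% to 33.8%. Interaction medians ran from -0.57 to -0.14.

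For transcript shares (24, 23 and 11 members) the Simes combination gave 12, 8 and 2, and 10 counts in every library 7, 6 and 6. Leaving out 1 library gave 13 to 29, 9 to 27 and 4 to 23. No share of all symbols was taken for these alternatives, so they have no background. By normalized CPM 6 of 10 families kept the same highest member. For gene totals the comparisons without calls had 0 under each alternative run. For transcript shares ethanol in KO also had 0, and KO against WT with ethanol was not run under the alternatives. Where a count moved, the cause was not tested, apart from fewer genes or libraries entering the fit. Shallow libraries limit single values, since KO ethanol replicate 1 held 28 counts for Srsf7.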
